A study of Mus musculus with 39 samples.

Results

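The interferon response genes described here were 41 genes chosen by symbol: 8 interferon regulatory factors and signalling genes, 10 Ifit, Oas and Mx genes taken as targets of type I interferon, 4 genes taken as targets of interferon gamma (Gbp2, Gbp3, Irgm1 and Iigp1), 16 other targets, and 3 genes of antigen processing. A gene was a member when its symbol was on that list, whatever its values. They were 41 of the 24717 genes that passed the filter on dim probes, and all 41 passed it. Stromal vascular cells were taken from the brown fat of C57BL/6J mice, and the labels call them infiltrating macrophages. Their RNA was hybridised to 39 Agilent arrays in 1 colour. Levels are given as log2 of the spot signal minus that of the array's 75th percentile, so that 0 marks this percentile and a difference of 1 is 2-fold; the levels of different genes come from different probes and are not set against each other.

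All mice were weaned at 3 to 4 weeks of age and entered diet groups of 30 animals, of which 5 were killed every 3 weeks. LFC mice ate a normal diet with 10% of calories from fat (10 arrays, labelled Day 1 to Week 18), and HFC mice ate a high fat, high sucrose diet with 60% of calories from fat (11 arrays). HF5, HF20 and HF75 mice ate the HFC diet with 5, 20 or 75 µg of KAL-1, a botanical formulation (6 arrays each, Week 3 to Week 18). No diet had more than 1 array at a time label, so the time labels were the only replicates, and LFC had no array at Week 6. Whether an array held RNA of 1 animal or of several was not given in the sources used here. HF20 Week 12 was grouped by its title and source name, because its diet field gave the high fat diet alone. The genes that define macrophages were present (7 of the 8 markers were tested, and Emr1, Csf1r and Cd68 were well above background on all 39 arrays), but Ucp1, Adipoq and Fabp4, markers of brown and general adipocytes, were also well above background on all 39. In bulk RNA of this kind, fewer cells of a type and less RNA per cell cannot be told apart. The titles of 9 arrays held the token BA or BAT in place of another form (HFC Day 1, LFC Day 6, HF5 and HFC Week 9, LFC and HF20 Week 12, HF5 and HF75 Week 15, LFC Week 18), and these are called titled arrays here. On 3 arrays over 10% of the spots were marked as outliers and left out: 21 of the 41 genes had a value on HF20 Week 15, 36 on HF5 Week 12 and all 41 on HFC Week 12. LFC Day 10 and HFC Week 12 had Ucp1 at -3.16 and -3.18, the lowest of all arrays.

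Type I interferons are secreted when sensors of foreign or misplaced nucleic acid are triggered. Their receptor leads to a complex that holds STAT2 and IRF9 and that binds the interferon-stimulated response element and switches on Ifit, Oas, Mx, Isg15 and many other antiviral genes. Interferon gamma comes mainly from T and natural killer cells. It acts on gamma-activated sites and through IRF1 and IRF8, and in macrophages and endothelium it drives guanylate-binding proteins, immunity-related GTPases and the immunoproteasome. The target sets overlap, since most of these genes answer to both kinds of interferon to some degree. In fat, macrophages, lymphocytes and endothelial cells all carry these receptors.

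Interferon signals reach their targets through short promoter elements. The promoter windows of the genes were read from the RefSeq promoter table (GRCm38.p6), which holds 250 bases before to 50 bases after each start. Of the 41 genes, 34 were in the table; Iigp1, Mx1, Mx2, Oas2, Parp14, Usp18 and Zbp1 were not. The core of the interferon-stimulated response element, GAAANNGAAA on either strand, was held by 17 of the 34 (50%), against 3.99% of all 27025 genes of the table. The gamma-activated core, TTCNNNGAA, which reads the same on both strands, was held by 13 of the 34 (38.2%), against 9.55% of all genes. Both cores were found for 6 genes and neither for 10. The first core was in 4 of 7 type I targets, in 3 of 3 gamma targets and in 2 of 8 regulators, and the gamma-activated core was in 2, 0 and 3 of them. The stretches that follow are shown because they carry the first core in genes on which the results turn, with every base of a match in capitals. A match is a run of letters and was not tested as a binding site.
Isg15, chr4:156200855-156200916, minus strand: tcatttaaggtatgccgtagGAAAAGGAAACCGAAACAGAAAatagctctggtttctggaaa
Ifit1, chr19:34640765-34640833, plus strand: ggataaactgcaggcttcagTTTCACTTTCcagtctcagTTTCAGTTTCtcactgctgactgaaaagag
Ifit3, chr19:34583353-34583436, plus strand: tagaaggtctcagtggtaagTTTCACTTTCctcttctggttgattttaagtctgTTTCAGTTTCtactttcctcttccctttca
Oas1a, chr5:120907526-120907565, minus strand: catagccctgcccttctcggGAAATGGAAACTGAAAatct
Rsad2, chr12:26456543-26456592, minus strand: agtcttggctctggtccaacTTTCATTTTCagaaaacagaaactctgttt
Gbp2, chr3:142620584-142620633, plus strand: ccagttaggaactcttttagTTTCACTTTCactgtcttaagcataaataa
Gbp3, chr3:142559979-142560034, plus strand: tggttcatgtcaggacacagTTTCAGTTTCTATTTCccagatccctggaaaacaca
Irgm1, chr11:48871421-48871470, minus strand: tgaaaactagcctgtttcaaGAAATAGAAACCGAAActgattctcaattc
Igtp, chr11:58199502-58199551, plus strand: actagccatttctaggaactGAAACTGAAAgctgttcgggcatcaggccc
Bst2, chr8:71537567-71537622, minus strand: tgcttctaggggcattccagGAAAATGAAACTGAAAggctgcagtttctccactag

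Isg15 carried 3 overlapping cores, and Ifit1 and Ifit3 carried 2 that lay apart. The gamma targets Gbp2, Gbp3 and Irgm1 held the same core as the type I targets, and for Irgm1 the nearest core began 24 bases before the start. Another set is shown for the gamma-activated core, which stood in the windows of the regulators Irf1 and Irf8 and of the proteasome subunit Psmb8, where the first core was absent.
Irf1, chr11:53769904-53769952, plus strand: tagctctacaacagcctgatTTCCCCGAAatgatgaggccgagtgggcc
Irf8, chr8:120736167-120736233, plus strand: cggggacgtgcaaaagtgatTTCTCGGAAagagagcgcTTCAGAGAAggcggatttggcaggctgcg
Psmb8, chr17:34198078-34198126, plus strand: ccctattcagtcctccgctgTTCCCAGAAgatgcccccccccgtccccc

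The 41 genes were measured unequally well. On all 39 arrays 26 of them were well above background, and on at least 30 arrays 39 of them; Mx1 reached that on 19 arrays and Oas3 on 18, so a low value of these 2 genes is close to a limit of detection. Single spots of other genes were as dim. On HF5 Week 18 Irf7, Mx1 and Oas3 shared the value -3.15, and on HF20 Week 9 Ifit2 and Oas3 shared -3.52. No spot of the 41 was saturated. The standard deviation of a gene over the 39 arrays had a median of 1.28, from 0.77 for Irf3, a factor that is present before any signal and is activated by phosphorylation, to 2.16 for Mx1, a GTPase that blocks viral replication. The genes varied together. Over the 36 arrays with few outlier spots the median Pearson correlation of the 820 pairs was 0.67, against 0.04 for pairs of every 10th probe on the array. The correlation was 0.75 within the type I list, 0.89 within the gamma list and 0.69 between them, and without the titled arrays it was 0.57, 0.90 and 0.64. These are descriptions: all pairs share the same arrays and the same scaling. The nearest gene was of the same role for 17 of the 41, as for Oasl2 with Oas1a (r = 0.95), Psmb8 with Psmb9 (0.93) and Iigp1 with Irgm1 (0.94). It was of another role for 24, as for Isg15 with the regulator Irf7 (0.93), Mx2 with Irf1 (0.92) and Irgm1 with Parp14 (0.94). Eif2ak2, the RNA-activated kinase PKR, and Ifitm1 stood apart, with median correlations to the other genes of 0.09 and 0.18.

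**Figure D1:**
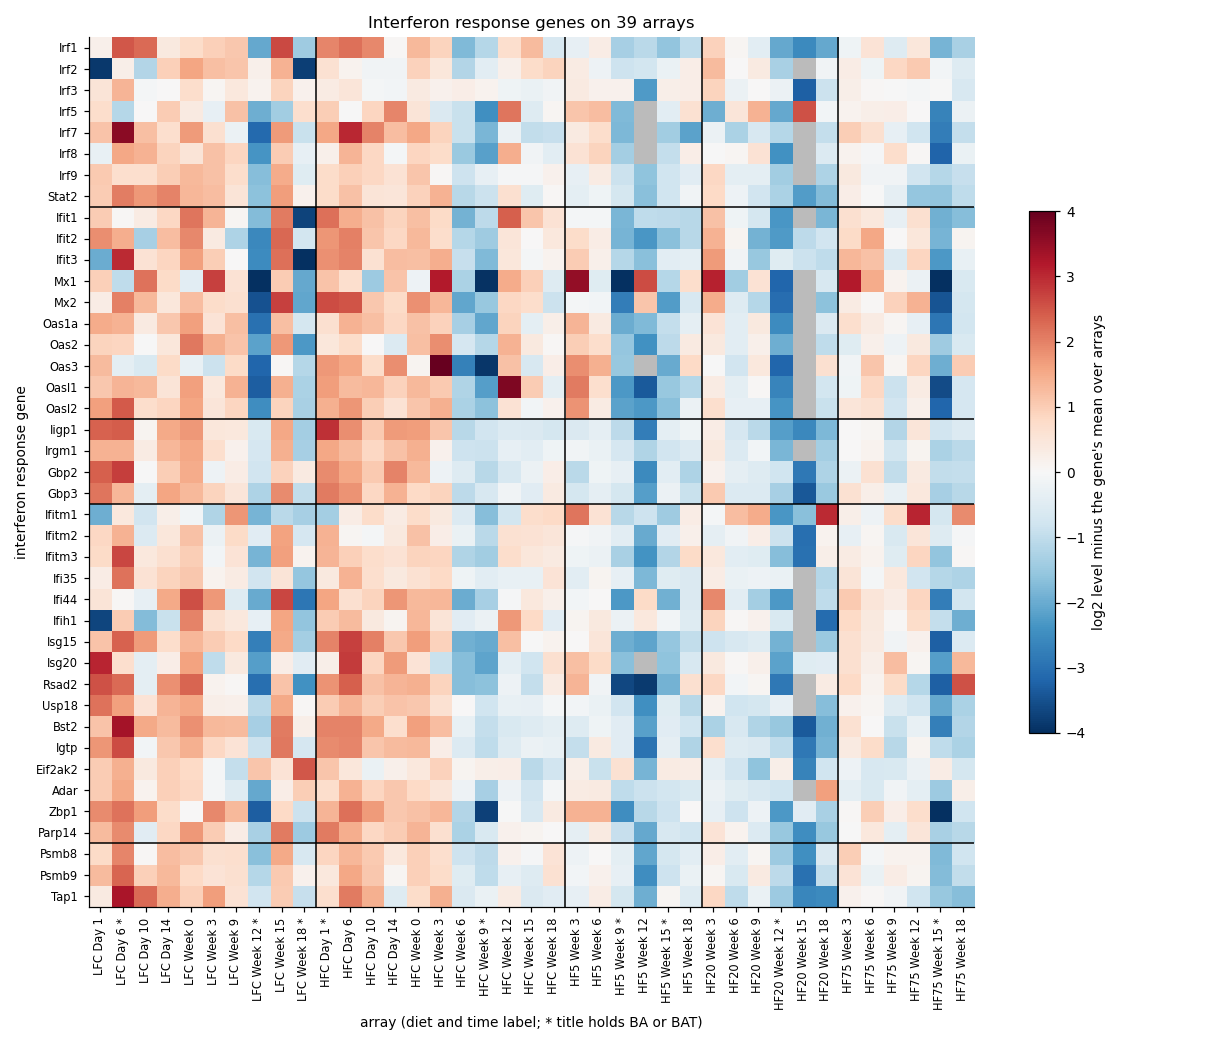
Level of each of the 41 interferon response genes (rows, grouped by role) on each of the 39 arrays (columns, grouped by diet and ordered by time), as log2 level minus the mean of the gene; colours stop at -4 and 4, grey marks a spot left out, and an asterisk marks an array titled BA or BAT. The early LFC and HFC columns are mostly red, and the 7 titled columns from Week 9 on are blue in the type I block.

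The genes shared a pattern along time. In the LFC and HFC groups, the only ones with arrays from Day 1 on, most genes had higher values on the arrays from Day 1 to Week 0 than on the later ones. A slope over log2 of days, fitted with diet as a term on the 21 LFC and HFC arrays, was negative for 38 of the 41 genes, with a median of -0.28 per doubling of days against -0.05 over all probes. Of all probes, 63.6% had a negative slope. At an unadjusted p under 0.05 by limma, 26 of the 41 had a negative slope and 0 a positive one. Of all 34035 probes tested, 11.9% were under that limit, and 7.86% were under it with a negative slope. After Benjamini-Hochberg adjustment over all probes by limma, 0 of the 41 genes and 0% of the probes were under 0.05, so no single gene was called. The slope of HFC was set against that of LFC in the same way, and 0 of the 41 genes differed at an unadjusted p under 0.05 by limma, where 1.41% of all probes did, so a count of 0 in 41 is near the background.

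The gamma list held the gene with the smallest p of the 41. Iigp1, an immunity-related GTPase that attacks the vacuoles of parasites, lay between 3.13 and 5.94 (median 4.74) on the 10 arrays from Day 1 to Week 0 and between 1.66 and 4.58 (median 2.45) on the 11 LFC and HFC arrays from Week 3 on. Its slope was -0.48 (SE 0.08, adjusted p = 0.0788 by limma), or a fitted change of -3.45 from Day 1 to day 140. Gbp2, a guanylate-binding protein, reached 4.78 early (median 3.53) and ran from 0.91 to 2.93 (median 1.81) late, and its slope was -0.38 (SE 0.08, adjusted p = 0.134 by limma). These ranges overlap for both genes, although most early arrays were above most late ones. Gbp3 had early and late medians of 3.86 and 2.37, and its slope was -0.34 (SE 0.09). Irgm1, which controls the other GTPases of its family, had medians of 2.64 and 0.98 and a slope of -0.31 (SE 0.07). All 4 gamma targets were thus under the unadjusted limit, and their median slope was -0.36. Igtp, another GTPase of the family, moved with them, with a median of 4.62 on the early and 2.94 on the late arrays.

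Among the regulators, Irf7, the factor that amplifies the type I response, had the steepest slope, -0.50 (SE 0.12). Its early values ran from -0.32 to 2.61 (median 0.55) and its late ones from -4.10 to 0.69 (median -1.89). Irf1, Irf9 and Stat2 were also under the unadjusted limit, so that 4 of the 8 regulators were. The early and late medians were 6.33 and 5.40 for Irf1, 1.64 and 0.71 for Irf9, and 2.01 and 1.08 for Stat2. Irf8, which macrophages and dendritic cells need for their development, had medians of 1.82 and 0.86 with overlapping ranges and was not under the limit. The 3 genes with a positive slope were Irf2 (0.13), the RNA sensor Ifih1 (0.11) and Ifitm1 (0.04), all within their error. Without the titled arrays, Irf2 had a slope of 0.47 (SE 0.14, unadjusted p = 0.00528 by limma) and Ifih1 of 0.37 (SE 0.17, unadjusted p = 0.0421 by limma). These are the 2 positive slopes under the limit in that fit. Its only Day 1 array was LFC Day 1, with the lowest value of both genes on any array (-4.01 and -3.87). The titled HFC Day 1 array, left out there, had 0.46 and 0.81. Whether these 2 slopes hold without LFC Day 1 was not tested. With the titled arrays kept, the other Ifih1 probe had a slope of -0.08.

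The type I list had a negative slope for 10 of 10 genes and a median slope of -0.31, but its genes were more scattered, and 4 of them (Ifit2, Mx2, Oas1a and Oasl2) were under the unadjusted limit. Mx2 ran from 0.60 to 2.92 (median 1.58) early and from -3.18 to 3.05 (median 0.95) late. Oas1a, which makes the activator of RNase L, ran from 0.52 to 1.81 (median 1.37) early and from -2.81 to 1.38 (median 0.42) late. For both genes the late range reached as high or nearly as high as the early one and far lower. Oasl1 ran from -0.53 to 0.64 (median 0.25) early and from -4.35 to 2.69 (median -0.61) late. Ifit1, Ifit2 and Ifit3, which encode RNA-binding blockers of viral translation, had early medians of 0.84, -0.23 and 1.76 and late medians of 0.33, -1.62 and 0.53. Oasl2 had 1.77 and 0.67, Oas2 0.54 and 0.33, Oas3 -3.20 and -4.59, and Mx1 -3.15 and -3.29.

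Of the other targets, Rsad2, which encodes the antiviral enzyme viperin, had a slope of -0.54 (SE 0.12, adjusted p = 0.143 by limma) and values of 1.60 to 4.51 (median 3.79) early and -1.05 to 3.11 (median 1.77) late. Usp18, the protease that removes ISG15 and damps the type I receptor, had a slope of -0.29 (SE 0.07), with medians of 1.14 and -0.09. Isg15 itself, the ubiquitin-like tag, had medians of 2.74 and 1.20. Bst2, the tetherin that holds virus particles at the membrane, had medians of 5.21 and 3.34, and Ifitm3, which blocks viral entry, of 4.66 and 4.19. The antigen processing genes, under the unadjusted limit in 3 of 3 cases, had medians of 4.45 and 3.65 (Psmb8), 4.08 and 3.22 (Psmb9), and 4.06 and 2.62 (Tap1, the peptide transporter).

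**Figure D2:**
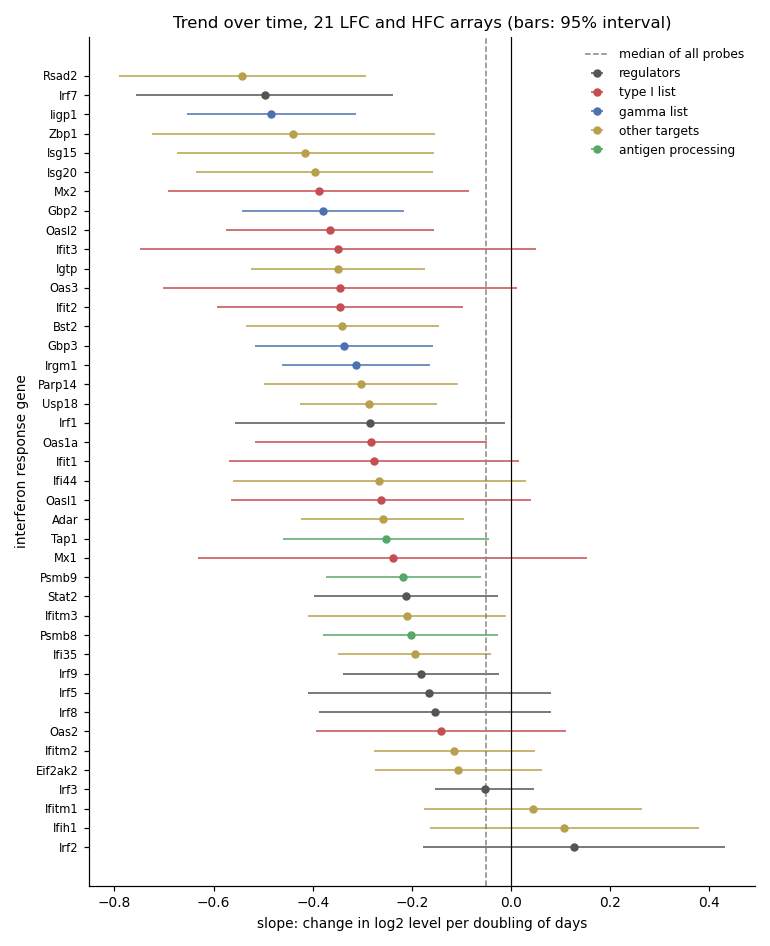
Slope of each of the 41 interferon response genes over log2 of days on 21 LFC and HFC arrays, in log2 units per doubling of days, with 95% intervals, coloured by role; the dashed line is the median of all probes. The 4 gamma targets sit between -0.48 and -0.31 with short bars, and the type I targets have wider bars.

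Other genes of the pathway, from a list of 60 of which 57 were tested, had a negative slope in 50 cases, and 28 were under the unadjusted limit, all of them negative, with a median of -0.17. Those with the smallest p were Tgtp (-0.44), a further GTPase, Parp12 (-0.27) and Gbp4 (-0.49). Markers of other cells moved along the same axis, on which 63.6% of all probes had a negative slope. All 5 endothelial markers (Pecam1, Cdh5, Kdr, Tek and Tie1) had a negative slope under the unadjusted limit, with a median of -0.28, and their summed linear level ran from 46.8 to 158 (median 106) on the early arrays and from 15.6 to 140 (median 39.7) on the late ones. Natural killer markers were negative in 5 of 5 cases, 3 of them under the limit, and erythroid markers likewise (5 of 5 and 3). Of the 7 macrophage markers tested 3 were negative and 0 under the limit, with a median of 0.01. T cell (7 of 7 negative) and B cell markers (5 of 5) had 0 under the limit, neutrophil markers (6 of 6) had 2, and plasmacytoid dendritic markers, of which Bst2 is one and Siglech was not tested, 2 of 3. Brown adipocyte markers were positive in 6 of 6 cases, general adipocyte markers in 5 of 6 and skeletal muscle markers in 5 of 5, and fibroblast markers in 3 of 6. The part of these cells in the slopes of the interferon genes was not tested.

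The 18 scan dates each held arrays of 1 time label, so scan date and time cannot be told apart. Of the titled arrays, 3 were late LFC or HFC arrays. Without the titled arrays, 15 of the 41 genes were under the unadjusted limit by limma, 13 of them negative, where 6.85% of all probes were under it and 3.49% with a negative slope, and the median slope was -0.14 against 0.01 over all probes. The gamma list was then still negative in 4 of 4 cases, 3 of them under the limit (median -0.29), whereas the type I list was negative in 7 of 10, 1 of them under the limit (median -0.06).

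To set the targets of the 2 kinds of interferon against each other within each array, each gene was centred on its own mean, and the median over a list was taken as its level. The 0 of a level is set by these same 39 arrays, so its sign only places an array among them. The type I level was above 0 on all 10 arrays from Day 1 to Week 0, at 1.16 ± 0.40 (SD, n = 10), and was -0.16 ± 1.45 (SD, n = 11) on the LFC and HFC arrays from Week 3 on. The gamma level was 1.46 ± 0.61 early, between 0.05 on LFC Day 10 and 2.24 on LFC Day 1, and -0.14 ± 0.81 late, with LFC Week 15 at 1.49 as the highest late array. On the 18 arrays with KAL-1, which are all late, the type I level was -0.52 ± 1.14 and the gamma level -0.79 ± 0.87. Thus the gamma level was above 0 on all 10 early arrays and on 9 of the 29 later ones. Over the 39 arrays the levels had r = 0.78 (Spearman rho = 0.85).

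**Figure D3:**
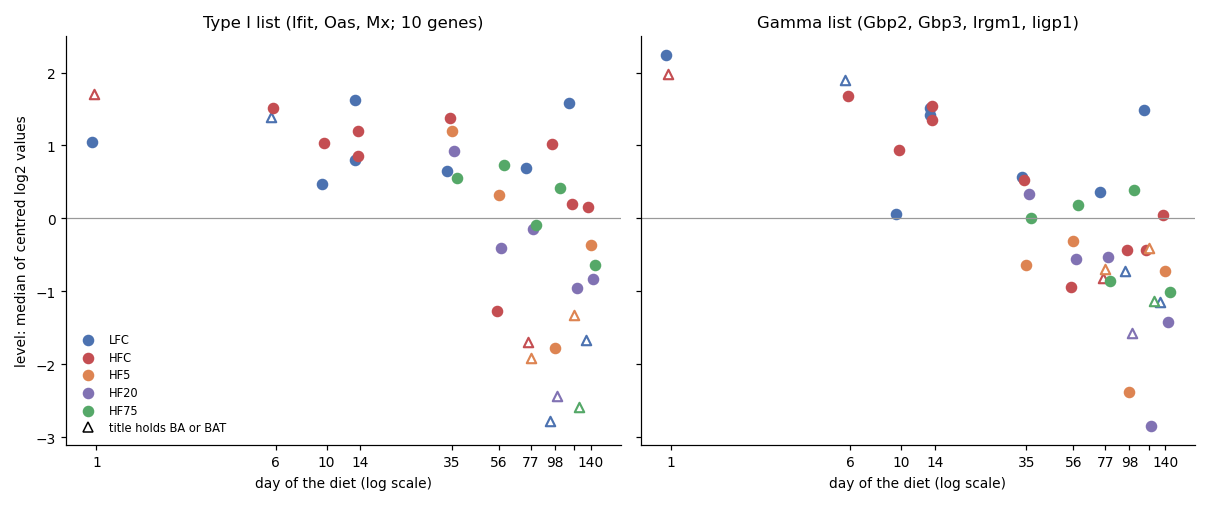
Level of the type I list (left) and of the gamma list (right) on each array, as the median of gene-centred log2 values, against the day of the diet on a log axis; colours give the diet and open triangles the titled arrays. Points before day 35 are all above 0 in both panels, and the open triangles from day 77 on are below -1 on the left and between -1.58 and -0.40 on the right.

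The later arrays differed by list. On the 7 titled arrays from Week 9 on, the type I level was -2.06 ± 0.55 and below 0 on all 7, while the gamma level was -0.93 ± 0.39. The difference of type I and gamma levels within an array was negative on these 7 arrays, from -2.07 to -0.51. It was positive on 21 of the 22 other arrays from Week 3 on (0.57 ± 0.55), with HFC Week 6 as the exception (-0.32). HFC Week 6 lacks the token, yet its type I level was -1.27, its natural killer marker level -2.42 and log2 of its 75th percentile 9.55. It is also the HFC array against which the KAL-1 arrays of Week 6 are set. From Day 1 to Week 0 the difference was negative with either kind of title, on both titled arrays and on 5 of the 8 others, which ran from -1.19 on LFC Day 1 to 0.41 on LFC Day 10. The 2 early titled arrays, HFC Day 1 and LFC Day 6, had type I levels of 1.70 and 1.38, as high as other early arrays. The largest difference upwards was on HF20 Week 15 (1.89), where many spots were left out. Of the type I list only Ifit2 and Ifit3 had a value there, and Irgm1 of the gamma list had none. That array is still counted among the 22. The next largest was on HF5 Week 3, where the type I level was 1.20 and the gamma level -0.64.

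Marker levels were set beside the level of each list. The gamma level had r = 0.94 with the endothelial level (rho = 0.90), 0.88 with the plasmacytoid dendritic level, which includes Bst2, itself one of the 41 genes, 0.51 with the erythroid and 0.22 with the macrophage level. The type I level had r = 0.82 with the plasmacytoid dendritic, 0.72 with the endothelial, 0.71 with the natural killer, 0.66 with the erythroid, 0.60 with the T cell and 0.49 with the macrophage level, and -0.54 with the general adipocyte level. Without the titled arrays, the correlation of the type I level with the natural killer level was 0.23, with the endothelial level 0.76 and with the plasmacytoid dendritic level 0.81, and that of the gamma level with the endothelial level was 0.94. Several natural killer markers were dim, so that level rests in part on spots near the limit of detection. These correlations describe 39 or 30 arrays that share a scaling, and the part of cell makeup in either level was not tested.

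**Figure D4:**
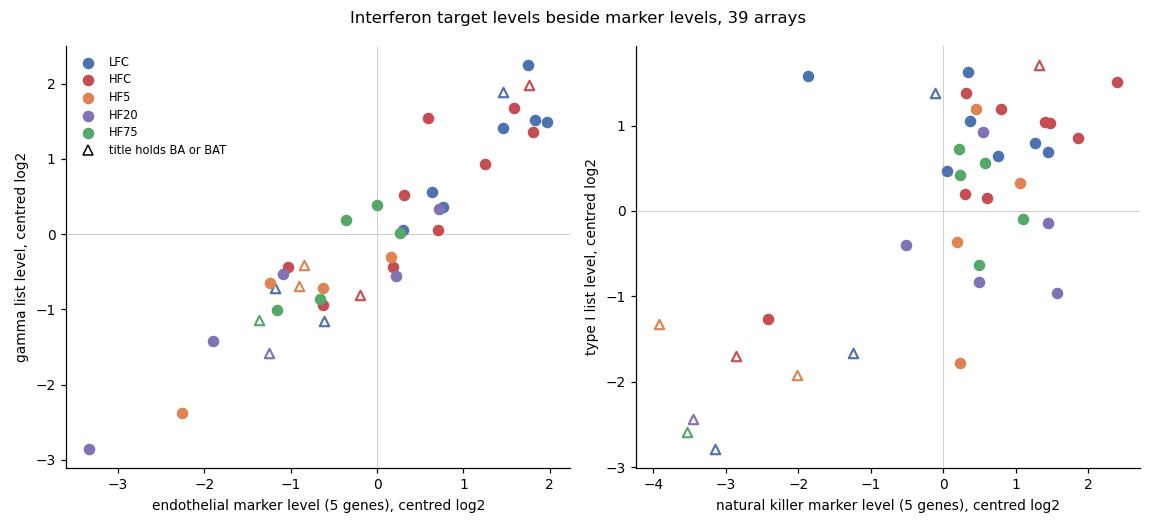
Gamma list level against the endothelial marker level (left) and type I list level against the natural killer marker level (right), both as medians of gene-centred log2 values, for 39 arrays coloured by diet with titled arrays as open triangles. The left points lie along 1 line, and on the right the late titled arrays lie at the lower left. Without the titled arrays r was 0.23 on the right, and several natural killer markers were dim.

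Diet was the next comparison: whether the high fat diet changed the genes, with the time label as a block on all 39 arrays. Between HFC and LFC, 27 of the 41 genes were lower in HFC and 14 higher, where 45.8% of all probes were lower. Under an unadjusted p of 0.05 by limma were 0 of the 41, against 2.82% of all probes. After adjustment 0 genes and 0% of probes were called. The median difference was -0.09 (all probes 0.05), and it turned to 0.09 with the percentile taken over well-measured probes, to 0.02 with normexp background correction, to 0.10 with the scan date as a block and to 0.07 without Week 9 or without Week 15, so it has no settled direction. The genes with the smallest p were Stat2 (-0.67, SE 0.35), Ifih1 (0.79, SE 0.43) and Bst2 (-0.67, SE 0.38). Stat2 ran from -0.72 to 2.95 (median 2.20) in LFC and from -0.19 to 2.32 (median 1.42) in HFC. These ranges overlap over most of their length. The 4 gamma targets were all lower in HFC (median -0.21; 2 of 4 with the other percentile), and the type I list was lower in 3 of 10 cases (median 0.27), or in 8 of 10 without the titled arrays (median -0.22).

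The differences varied by time label. From Day 1 to Week 3 the median HFC minus LFC difference of the 41 genes lay between -0.20 and 0.48. It was -1.65 at Week 9, where the HFC array was titled, and 1.95 at Week 12 and 1.13 at Week 18, where the LFC array was titled. The HFC array of Week 12 was unusual as well, with 11.1% outlier spots and the lowest Ucp1 of all arrays (-3.18). At Week 15, where neither array was titled, the median was -1.54, with 39 of the 41 genes lower in HFC and 31 of them at least 2-fold. At that label LFC was the high array: its gamma level of 1.49 was within the early range, and its endothelial level was the highest of the LFC group. Of the 41 genes, 0 had the same sign at all 10 labels. As a gauge of 1 array against another, the Week 0 arrays, taken at the same day of the diet as Day 14, differed from the Day 14 arrays by a median of 0.36 in LFC and 0.34 in HFC, with 9 and 10 of the 41 genes at least 2-fold apart.

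The KAL-1 groups were set against HFC, whose arrays all 3 comparisons share. In HF5, 34 of the 41 genes were lower, with 0 under an unadjusted p of 0.05 by limma (1.46% of all probes), and a median of -0.52 against -0.03 over all probes. In HF20, 36 were lower, with 3 under that limit (2.66% of all probes, and 1.32% lower) and a median of -0.65 against -0.02. In HF75, 33 were lower, with 0 under the limit (3.56% of all probes) and a median of -0.17 against 0.05. Of all probes, 52.8% were lower in HF5, 51.4% in HF20 and 46.1% in HF75. After adjustment over all probes by limma, 0 genes and 0% of probes were called in any of the 3 comparisons. The medians of HF5 and HF20 stayed below 0 under each other scaling tried, at -0.81 to -0.33, but their size rested on single weeks. The HF5 median was -0.31 without Week 12, -0.81 without Week 6 and -0.25 without the 3 arrays with many outlier spots, and the HF20 median was -0.38 without Week 12 and -0.34 without Week 15. The HF75 median turned to 0.12 without Week 15.

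**Figure D5:**
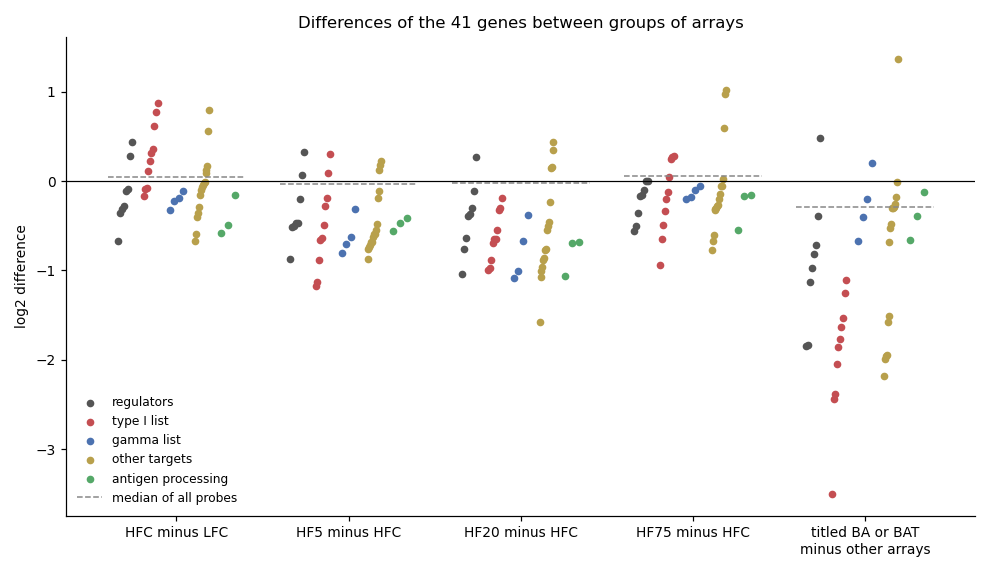
Log2 difference of each of the 41 interferon response genes in the 4 diet comparisons and between titled and other arrays, coloured by role; dashed lines give the median of all probes. Most points of HF5 and HF20 lie below 0, those of HFC minus LFC spread around 0 with a median that turns sign with the scaling, and those of the titled arrays reach -3.50, although with normexp correction the gamma targets turned to the positive side.

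The 3 genes under the limit in HF20 were Bst2, Tap1 and Iigp1. Bst2 ran from 0.26 to 2.99 (median 2.25) in HF20 and from 2.69 to 5.63 (median 4.30) in HFC. It was 2.98-fold lower in HF20 (log2 -1.58, SE 0.47, adjusted p = 0.998 by limma), and it was lower than the HFC array at 6 of 6 weeks, by 0.27 to 2.85. The groups overlapped in a narrow band. Tap1 ran from 0.28 to 3.69 (median 1.65) in HF20 and from 2.29 to 4.94 (median 3.21) in HFC, and its difference was -1.07 (SE 0.42; lower at 5 of 6 weeks). Iigp1 ran from 0.44 to 3.30 (median 1.58) in HF20 and from 1.93 to 5.94 (median 4.08) in HFC, with a difference of -1.08 (SE 0.46; lower at 5 of 6 weeks). The HFC ranges include the early arrays, which HF20 does not have; the fit compares arrays of the same week. With the time label left out, 18 of the 41 genes were under the unadjusted limit by limma in HF20 (4.85% of all probes) and 18 in HF5 (3.71%); that fit sets KAL-1 arrays, all from Week 3 on, against HFC arrays that include the early ones. Without the 3 arrays with many outlier spots, 1 of the 41 genes was under the unadjusted limit in HF20 (1.37% of all probes) and the median was -0.26. The endothelial markers were lower in HF20 in 5 of 5 cases (median -0.93, 2 under the limit), and likewise in HF5 (median -0.98, 2 under it). Macrophage markers had a median of -0.24 in HF20 and 0.24 in HF5, with 0 under the limit in either. Brown adipocyte markers were higher in HF5 in 6 of 6 cases (median 1.18, 2 under the limit), and erythroid markers were higher in HF75 in 5 of 5 (median 1.63, 2 under it). The part of these cells in the interferon gene differences was not tested.

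In HF5 the smallest p were those of Usp18 (-0.74, SE 0.38), Ifit1 (-1.13, SE 0.68) and Gbp3 (-0.81, SE 0.50). Usp18 lay between -2.55 and -0.23 (median -0.73) in HF5 and between -0.90 and 1.26 (median 0.51) in HFC. Ifit1, which binds viral RNA that lacks the host cap, lay between -2.08 and -0.34 (median -1.29) in HF5 and between -2.15 and 2.12 (median 0.86) in HFC. In HF75 they were Usp18 (-0.60, SE 0.38), the exonuclease Isg20 (0.98, SE 0.62) and Ifih1 (-0.77, SE 0.53). The 95% intervals of the 41 differences against HFC were wide: the narrowest SE among them was 0.34 and the median SE was 0.58 in HF5 and HF20 and 0.55 in HF75, so a 2-fold difference of most genes was not detectable with 6 weeks a group. The HF75 median went to -0.01 without the 2 arrays of lowest Ucp1.

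Across dose rank, from HFC over HF5 and HF20 to HF75 at Week 3 to Week 18, the slope was negative for 30 of the 41 genes and for 46.7% of all probes. Its median was -0.07 per step (all probes 0.02), and this turned to 0.01 without the 2 arrays of lowest Ucp1 and to 0.06 without Week 15. No gene (0 of 41) was under an unadjusted p of 0.05 by limma, against 7.04% of probes, and 0% were called after adjustment. Isg20 (0.34, SE 0.19), Tap1 (-0.25, SE 0.15) and Stat2 (-0.22, SE 0.14) had the smallest p. The medians of HF75 lay nearer to HFC than those of HF5 and HF20, but that order was not tested.

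Of the pathway list, 1 of 57 genes was under the unadjusted limit between HFC and LFC (2.82% of all probes), 2 in HF75 (3.56%) and 2 in the dose trend (7.04%), which is near or below the share of all probes. In HF5 6 of 57 were under it (1.46% of all probes) and in HF20 7 of 57 (2.66%), all of them lower. Class I heavy chains led in HF20 (H2-D1 -1.09, H2-K1 -0.96) and between HFC and LFC (H2-K1 -0.78). In HF5 the leading genes were the chemokine Cxcl9 (-1.62), which interferon gamma induces, Gbp6 (-1.15) and Parp12 (-1.04). In HF75 they were the receptor kinase Tyk2 (-1.50), the class I transactivator Nlrc5 (1.17) and Gbp1 (-1.97). These probes were dim: of the 6 HF75 arrays, Tyk2 was well above background on 3, Nlrc5 on 4 and Gbp1 on 4. Of the 6 HF5 arrays, Cxcl9 was well above background on 5, Gbp6 on 4 and Parp12 on 3. The sizes of these HF75 and HF5 differences thus rest in part on spots near the limit of detection.

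The titled arrays were last set against the other 30, with diet and time label in the fit. The token has no meaning given in the sources used here. By limma with adjustment, 52.4% of all probes were called, 31.8% lower and 20.5% higher, and 21 of the 41 genes were called. That total is near the share of all probes, but 20 of the 21 were lower and 1 was higher. The median of the 41 genes was -0.82 against -0.30 over all probes, and it stayed below that of all probes with quantile normalization (-0.81 against 0.11) but not with normexp correction (-0.72 against -1.29). Of the type I list 10 of 10 were lower, 9 of them called, with a median of -1.81 (-1.39 under normexp correction, close to the -1.29 of all probes), whereas 1 of the 4 gamma targets was called and their median was -0.30 (0.87, with 0 of 4 lower, under normexp correction).

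Mx1 had the largest difference, -3.50 (SE 0.55, adjusted p = 9.68e-05 by limma), with a median of -7.83 on the 7 late titled arrays and -3.15 on the 21 other late arrays with a value. The -3.15 is the value of HF5 Week 18, where Oas3 and Irf7 had the same value, so it is not a measured level of Mx1. Mx1 was well above background on 2 of the 9 titled arrays and on 17 of the 29 others. The size of its difference thus rests largely on dim spots. Zbp1, a sensor of nucleic acid in the Z form, had medians of -2.55 and -0.03 on the same arrays and a difference of -2.18 (SE 0.45, adjusted p = 0.000529 by limma). Isg20 fell by 1.95 (SE 0.35, adjusted p = 0.000246 by limma). Eif2ak2 was the only gene called higher, by 1.37 (SE 0.29, adjusted p = 0.000708 by limma), with late medians of -0.60 and -1.54. Of the pathway list 17 of 57 genes were called lower (31.8% of all probes) and 5 higher (20.5%), which is near or below the share of all probes. Those with the smallest p were Ifi205 (-2.22), Ifng (-4.16) and Ifi204 (-1.82).

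Markers of several cell types moved with the titles. All 5 natural killer markers were called lower (median -2.75), as were 6 of 6 neutrophil markers tested (-4.65) and 5 of 5 erythroid markers. So were 5 of 7 T cell, 5 of 7 macrophage, 4 of 5 B cell and 4 of 6 fibroblast markers. Plasmacytoid dendritic markers were lower in 3 of 3 cases, with 1 called (median -0.34). Of the 6 general adipocyte markers 4 were called higher and 1 was called lower (-2.36). Brown adipocyte markers were higher in 5 of 6 cases, with 2 called. The summed linear level of the natural killer markers was 0.05 to 0.25 on the late titled arrays and 0.13 to 2.54 on the other late ones. As few as 1 of these 5 markers was well above background on a late titled array, and 0 on another late array. The size of their difference thus rests in part on spots near the limit of detection. Endothelial markers were lower in 4 of 5 cases, with 1 called (median -0.50). The late titled arrays were also brighter: log2 of the 75th percentile was 9.65 ± 0.66 on them and 6.60 ± 1.92 on the other late arrays. The part of cell makeup and of array brightness in the lower type I genes was not tested.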

How the data were processed

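Each deposited array file gives, per spot, an intensity from which Agilent Feature Extraction had already taken the background, unscaled between arrays (version 10.5.1.1 per the file headers, 9.1 per the labels). The deposited series table holds the authors' log2 differences from the LFC array of the same time label, made in GeneSpring GX per the methods. Its values were not used, and its annotation named the probes. At Day 14 the column that is 0 throughout is the one titled HFC, so the Day 14 labels may be exchanged.

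Groups came from the labels. Log2 of the processed intensity was scaled to the array's 75th percentile, spots marked as outliers were dropped and the spots of a probe averaged. Probes well above background on at least 6 arrays were kept (34035 of 40628), and the brightest probe stood for a gene. In 23 of the 41 genes there was 1 probe. Where several probes existed, they differed in sign for Ifih1 in the trend and Tap1 between titled and other arrays, and for 3 to 6 genes in each diet comparison. Zbp1 did so most often, followed by Irf9 and Isg20. For the gamma target Irgm1 the other probe was higher in HF20 (0.34) and HF75 (0.91), where the brightest gave -0.38 and -0.18. The 75th percentile ran from 18.1 to 3974 intensity units, and 31.2% to 98.0% of probes were well above background. Arrays have no read depth, and their number limits the precision.

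Differences were fitted with limma 3.58.1 in R 4.3.3 (lmFit and eBayes, two-sided, Benjamini-Hochberg over all probes, threshold 0.05): diets and titles with diet and time label on 39 arrays, the trend with diet on 21, and dose rank with time label on 24. Weeks were counted from Day 14. The fits were tested on simulated data. The members and all lists were chosen with earlier results of these data known. All members could be named; full values were planned for the regulators Irf1, Irf7, Irf8, Irf9 and Stat2, the type I and gamma lists, Igtp, Isg15, Rsad2, Usp18, Bst2, Ifitm3 and the antigen processing genes, and for the 3 genes with the smallest p in a comparison, in the pathway list too. Mice were killed for tissue, so arrays of different diets or weeks held different animals. The diet, dose and title fits took out the level of each time label, so their p-values rest on the scatter of arrays that was left. In the trend fit the p-values rest on the scatter of arrays around the fitted lines. With 1 array per diet and time label, no p-value measures the spread between animals of the same diet and time label. The labels' design text gives 3 biological replicates, and 1 array per diet and time label was analysed here. The alternatives were 37 settings of scaling, normexp background correction (offset 50), filter, block, weights and arrays left out. LFC and HFC deviations at the same time label correlated above 0.1 at 5 of 10 labels (median 0.184).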

Additional observations from a re-analysis of the deposited data

Results flagged for a closer look

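In groups of 4 to 10 arrays, which leaves out HFC with its 11 arrays, the highest or lowest array was set against the range of its group by Dixon's 95% limit, and 24 of 176 groups (44 genes and levels in 4 diets) passed it (13.6%, where chance gives about 5%). These groups are not independent, since 9 of the 24 came from HF5 Week 12 and 7 from HF75 Week 15. On HF5 Week 12, an array with 18.6% outlier spots, the lowest value of its diet was that of Irf3 (0.90), Ifitm2 (0.084), Ifi35 (-0.56), Bst2 (1.47), Iigp1 (0.26), Gbp3 (0.28), Psmb8 (1.39), Psmb9 (0.59) and the gamma level (-2.38). These are genes of several roles, the gamma targets and the immunoproteasome among them. On HF75 Week 15, a titled array, the low values were those of Irf5 (-3.59), Irf8 (-2.23), Isg15 (-2.21), Isg20 (-1.03), Oasl2 (-2.66), Zbp1 (-4.21) and the difference of type I and gamma levels (-1.45). On LFC Week 12, also titled, they were Irf8 (-1.38), Stat2 (-0.72) and Oas1a (-2.81), and on HF20 Week 12, titled as well, Isg20 (-0.99) and Rsad2 (-0.87). Ifitm2 was low on HF20 Week 15 (-0.90), where 71.4% of spots were left out. Irf3 on HF75 Week 18 (2.52, low) and Adar on HF20 Week 18 (0.82, high) were on arrays with no other gene past the limit. Slopes of HFC and LFC differed in 0 of the 41 genes.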

How the results depend on the processing

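Of 1428 values over 52 results and 37 alternative settings, 1331 kept their side of the threshold, stayed close as a count or moved by less than their error, and 1323 of these also kept their sign. The other 8 were medians that changed sign within their error, with none of their genes called in the original fits: 5 for HFC against LFC (0.02 to 0.10), 2 for dose (0.01 and 0.06) and 1 for HF75 (0.12). The median was negative under every setting tried for the trend, HF5, HF20 and the titles. The cause of the changes was not tested. Probes called between HFC and LFC were 5 (quantile), 1 (other percentile), 2 (probes well above background on all arrays), 32 (array weights), 2 (without titled arrays), 1 (without HF20 Week 12), 4 (title as a term) and 0 to 1 with each time label left out; in HF75 they were 3 without titled arrays and 1 with the title as a term. For the trend, probes called were 6 (quantile), 12 (well above background on all arrays), 156 (weights), 2 (intensity trend in the prior), 111 (all 5 diets), 4 (all 5 from Week 3 on) and 0 to 1 with a label left out, and members called were 1, 2, 8, 1 and 8 in the first 5 of these and 0 to 1 with a label left out (1 without Week 15). Members under the unadjusted limit were 15 without titled arrays and 6 in LFC alone; the median slope was -0.14 without titled arrays and -0.66 from Week 3 on. Probes called over dose were 23 (weights), 74 (title as a term) and 0 to 7 (7 without Week 15). Probes called between titled and other arrays were 10937 (quantile), 28422 (normexp), 4923 (well above background on all arrays) and 10061 (without Week 12) to 20338; members called were 36 (other percentile) and 12 (well above background on all arrays), with medians of -1.29 (other percentile) and -1.22 to -0.56 (without Week 15). Without the replicate block of the time label, medians were -1.11 in HF20 and -0.95 in HF5. The slide block was not run for the trend, since no LFC or HFC arrays share a slide. Dim spots limit Mx1 and Oas3 most among the 41 genes, and other genes on single arrays. Ifit2 was well above background on 34 arrays, Ifih1 on 35, and Irf7, Oasl1 and Adar on 36.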
